A study of Mus musculus with 4 samples.

Results

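Polycomb repressive complex 2 (PRC2) was described here through 10 genes: the catalytic subunits Ezh2 and Ezh1, the core subunits Eed, Suz12 and Rbbp7, and the accessory subunits Jarid2, Aebp2, Mtf2, Phf19 and Phf1. They were taken by symbol, as all probe sets that the array platform's annotation assigned to a single one of these genes, which gave 32 probe sets of 45037 on the array and 10 genes of 18193. Gene expression had been measured on 4 Affymetrix mouse arrays, 2 from wild-type (WT) and 2 from Ezh2 conditional knockout (Ezh2cKO) embryos at embryonic day 16 (E16), in mice of mixed C57 and CD1 strain. RNA came from basal cells of the skin, the progenitor layer of the epidermis, purified by flow cytometry. The labels name neither the Cre driver nor the deleted exons, and they do not say whether the samples numbered 1 and 2 came from separate animals or from pools, so a p-value here reflects sample-to-sample variation that may be technical.

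PRC2 places methyl groups on lysine 27 of histone H3, a mark of silenced developmental genes. Ezh2 or its paralog Ezh1 carries the methyltransferase site, and neither is active without Eed, which binds the methyl mark, and Suz12, the scaffold of the complex. Rbbp7 and its near twin Rbbp4 bind histones, while Jarid2 and Aebp2 form one variant of the complex and the Polycomb-like proteins Phf1, Mtf2 and Phf19 form another. In embryonic epidermis, where cells divide, Ezh2 is the form known to predominate, and Ezh1 is known more from resting and differentiated cells.

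The values are MAS5 signals, a scaled brightness per probe set on a linear scale, and differences are in log2(signal + 16), which understates the change of dim probe sets. Probe sets in the upper 60% by mean were tested, 27022 in all. Of the 32 PRC2 probe sets 27 were tested, and every one of the 10 genes kept at least 1. The 5 left out were 2 of Ezh1 and 1 each of Eed, Mtf2 and Phf19, with signals between 2.33 and 60.7 on single arrays. In all 5 the genotypes overlapped, and in each genotype replicate 1 was the lower. The median signal of all probe sets without controls was also lower on the arrays numbered 1. It was 91.6 in WT and 87.4 in Ezh2cKO replicate 1, against 137 and 148 in replicate 2. The untested Ezh1 probe sets had 16.8 and 22.4 in WT and 6.07 and 29.7 in Ezh2cKO (1429629_at), and 18.0 and 30.7 in WT and 28.6 and 31.5 in Ezh2cKO (1429630_at). That of Eed (1453830_at) had 41.4 and 57.5 in WT and 33.8 and 60.7 in Ezh2cKO. The Mtf2 one (1459811_at) had 2.33 and 33.2 in WT and 3.57 and 24.5 in Ezh2cKO, and the Phf19 one (1431857_at) had 15.004 and 29.5 in WT and 14.1 and 38.9 in Ezh2cKO. A gene was represented by its brightest tested probe set. Since limma called 0 of the 27022 probe sets at an adjusted p under 0.05, with 15 lower (0.0555%) and 91 higher (0.337%) in Ezh2cKO at an unadjusted p under 0.05, the results are given mainly as values on each array.

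The basal keratins Krt5 and Krt14 had signals of 14501 to 18518 on all 4 arrays. Of the 6 basal markers Krt14 was separated upwards and Itga6, an integrin of basal cells, downwards, with 11908 and 10639 in WT and 6327 and 9411 in Ezh2cKO, and the other 4 overlapped. The sorted fraction also held RNA of other cell types. The summed signal of 6 fibroblast markers was 45792 to 57278, and that of 6 endothelial markers was 3427 in Ezh2cKO replicate 1 against 6608 to 8013 on the other arrays. Of 5 markers of differentiated layers 3, Lor, Flg and Ivl, were higher on both Ezh2cKO arrays than on both WT arrays (60% against 8.55% of all tested genes). Krt1 and Krt10, the brightest of these markers, overlapped, and Flg was dim in WT (23.8 and 29.5). For these cell type markers, fewer cells of a type and less RNA per cell cannot be told apart in bulk RNA of this kind. Xist, the RNA of X inactivation, was 86.9 in Ezh2cKO replicate 1 against 8669 to 11333 elsewhere. The part of these features in the PRC2 values was not tested.

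Ezh2, the targeted gene, had the largest difference of the PRC2 genes. Its single probe set (1416544_at) had signals of 3336 and 3603 in WT replicates 1 and 2 and of 661 and 1308 in Ezh2cKO replicates 1 and 2. Both Ezh2cKO arrays lay far below both WT arrays, and the Ezh2cKO arrays differed more from each other (1.98-fold) than the WT arrays did (1.08-fold). The Ezh2cKO signal was 19.8% of the WT signal within number 1 and 36.3% within number 2, so signal remained on both arrays. Whether the probe set lies in the deleted part of the gene is not stated, and the source of this remainder was not tested. The lower of the Ezh2cKO values came from the array with the lowest endothelial sum and with Xist at 86.9. The part of these features in the difference was not tested.

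The log2 difference of Ezh2 was -1.88 (SE 0.34, 95% confidence interval -2.72 to -1.03), the fourth largest decrease among 12789 tested genes. Limma gave an unadjusted p of 0.00196 and an adjusted p of 0.999979, and an exact permutation test of 2 arrays against 2 cannot go below its two-sided p of 0.333. Leaving out 1 array moved the adjusted p across the threshold, to 0.00213 when WT replicate 2 was dropped and 0.00447 when Ezh2cKO replicate 2 was. Dropping WT replicate 1 gave 0.259, and dropping Ezh2cKO replicate 1 gave 1 with a log2 difference of -1.40. In these fits 1 genotype has a lone array that is assumed to vary like the other genotype.

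**Figure D1:**
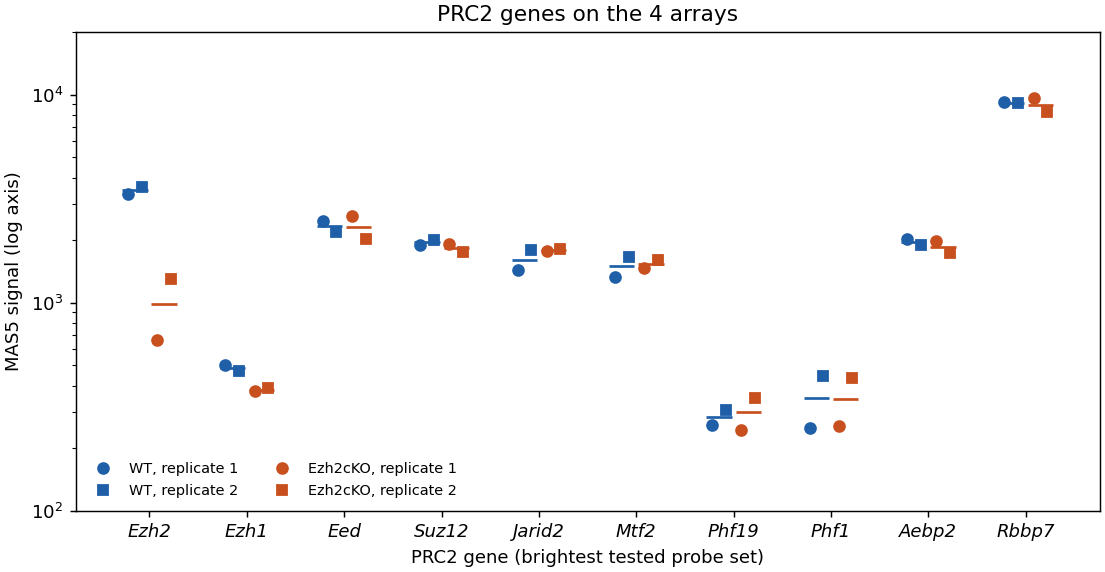
MAS5 signal (log axis) of each of the 10 PRC2 genes on the 4 arrays, by its brightest tested probe set; points are single arrays, blue for WT and orange for Ezh2cKO, circles for replicate 1 and squares for replicate 2, and bars are means of 2 arrays. Ezh2 lies at 661 and 1308 in Ezh2cKO against 3336 and 3603 in WT, while the genotypes overlap for 8 of the other 9 genes; heights of different genes are not comparable because each probe set has its own response.

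Ezh1, the other catalytic subunit, was not higher in Ezh2cKO. Its brightest probe set (1449023_a_at) had signals of 503 and 468 in WT and of 377 and 388 in Ezh2cKO. Both Ezh2cKO values lay below both WT values, at 0.749 times WT within number 1 and 0.828 times within number 2. The log2 difference was -0.33 (SE 0.23, interval -0.90 to 0.23), with limma's unadjusted p of 0.197 and adjusted p of 0.999979. The second tested probe set (1418290_a_at), designed from the same source sequence, did not show this. It had 109 and 178 in WT and 106 and 184 in Ezh2cKO, a log2 difference of 0.003 (interval -1.12 to 1.12), and its signal followed the replicate number in both genotypes. When the arrays were scaled to a common median, the separation of the brighter probe set was lost, although its log2 difference stayed at -0.35. Averaging the tested probe sets also ended it, at a log2 difference of -0.16. The interval reached 0.23 for the brighter probe set and 1.12 for the dimmer one, so a rise of Ezh1 within these limits could have gone undetected.

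Together Ezh2 and Ezh1 made 2 of 10 PRC2 genes with both Ezh2cKO arrays below both WT arrays, and 0 of 10 had both above. Over all 12789 tested genes 8.45% were separated downwards and 8.55% upwards, so Ezh1 as 1 of the 9 genes besides Ezh2 (11.1%) is near the background. The count of genes separated downwards was 4 after quantile normalization, which added Suz12 and Aebp2, and 1, Ezh2, after scaling to a common median. The share over all genes is not given for these settings. Over the 27 tested PRC2 probe sets 4 (14.8%) were separated downwards and 0 upwards, against 7.31% and 7.29% of all tested probe sets. Without Ezh2, the targeted gene, 3 of 26 (11.5%) were separated downwards. Besides the probe sets of Ezh2 and Ezh1, these were single probe sets of Suz12 and Mtf2 whose sister probe sets overlapped. The median log2 difference of the 9 genes besides Ezh2 was -0.02, and that of all tested genes was -0.004. None of the 10 genes passed limma's adjusted threshold, where 0% of all probe sets did.

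The core subunits Eed and Suz12 are bound to Ezh2 in the complex, and their transcripts overlapped between the genotypes. Eed (1448653_at) had signals of 2477 and 2186 in WT and of 2613 and 2026 in Ezh2cKO. The highest and the lowest value both came from Ezh2cKO, and the replicates numbered 1 were the higher in each genotype. Its log2 difference was -0.02 (SE 0.20, interval -0.51 to 0.47).

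Suz12 had 6 tested probe sets, the most of any PRC2 gene. The brightest (1420021_s_at) had 1903 and 1997 in WT and 1917 and 1764 in Ezh2cKO, a log2 difference of -0.08 (SE 0.16, interval -0.49 to 0.33). A probe set from another source sequence (1427253_s_at) had 1839 and 1926 in WT and 1842 and 1961 in Ezh2cKO, with a log2 difference of 0.01. These 2 differ in which Ezh2cKO array was the lower, and neither separates the genotypes. The 6 probe sets lay between log2 -0.27 and 0.02. The lowest was a dim one (1449661_at), with 142 and 148 in WT and 101 and 137 in Ezh2cKO, separated by a margin far smaller than the gap between its Ezh2cKO arrays. Because 3 of the 6 share one source sequence and 2 share another, they are not independent readings of the gene.

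Rbbp7, the histone-binding subunit that PRC2 shares with other chromatin complexes, gave bright signals. The brightest probe set (1456227_x_at) had 9215 and 9112 in WT and 9679.75 and 8273 in Ezh2cKO, and the second (1415775_at) had 8681 and 7369 in WT and 8500.07 and 7047 in Ezh2cKO. The genotypes overlapped in both, with log2 differences of -0.03 (interval -0.39 to 0.32, the narrowest of the 10 genes) and -0.05. The first is of a design type that can also detect related sequences. Rbbp7 is on the X chromosome, and in Ezh2cKO replicate 1, the array with Xist near absent, its signal was within the range of the other arrays for the second probe set and the highest of the 4 for the first.

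Jarid2 and Aebp2, which help bring PRC2 to its targets and stimulate its activity, also overlapped. Jarid2 (1422698_s_at) had 1434 and 1789 in WT and 1775 and 1811 in Ezh2cKO. WT replicate 1 was the low array and the other 3 lay close together, so the log2 difference of 0.16 (SE 0.19, interval -0.31 to 0.63) rests on it: without WT replicate 1 it was 0.003. The 3 Jarid2 probe sets, all from the same source sequence, gave log2 differences of 0.07 to 0.16.

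Aebp2 (1434080_at) had 2018 and 1892 in WT and 1978 and 1742 in Ezh2cKO, a log2 difference of -0.07 (SE 0.17, interval -0.50 to 0.35). Its 5 probe sets ranged from -0.08 to 0.19, and the mean over them was 0.03, of the opposite sign. One of them (1455616_at) behaved unlike the rest. It had 125 and 156 on the WT and Ezh2cKO arrays numbered 1 and 473 and 507 on those numbered 2, so the replicate number moved it by log2 1.70 and the genotype by 0.19. Its 4 sister probe sets moved by log2 -0.14 to 0.39 between the numbers.

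The Polycomb-like subunits bind DNA and the complex, and none of the 3 separated the genotypes by its brightest probe set. Mtf2 (1418514_at) had 1332 and 1659 in WT and 1474 and 1597 in Ezh2cKO, with both Ezh2cKO values inside the WT range and a log2 difference of 0.05 (SE 0.19, interval -0.44 to 0.53). Its 5 tested probe sets lay between -0.14 and 0.18. The lowest of these (1449115_at), with 504 and 514 in WT and 469.6 and 450.1 in Ezh2cKO, was separated, while 3 probe sets from the same source sequence as it overlapped.

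Phf19 (1427920_at) had 258 and 305 in WT and 245 and 349 in Ezh2cKO, with WT inside the Ezh2cKO range and a log2 difference of 0.06 (SE 0.30, interval -0.70 to 0.81). Phf1 (1416542_at) had 250.2 and 444 in WT and 255 and 436 in Ezh2cKO. Its signal followed the replicate number alone: the genotypes differed by log2 0.03 within number 1 and -0.03 within number 2, while number 2 was above number 1 by 0.79 in WT and 0.74 in Ezh2cKO. Its interval of -1.02 to 1.02 was the widest of the 10 genes by their brightest probe sets. By these probe sets, all 9 intervals of the genes besides Ezh2 included 0. Of the 9, 8 lay within 2-fold either way, Phf1 being the exception. Dimmer tested probe sets of Ezh1, Suz12, Mtf2 and Aebp2 had intervals that passed 2-fold, up to -1.76 to 2.15 for Aebp2 (1455616_at). The fit held genotype alone, so a shift between the numbers counts as noise, which can widen the intervals and raise limma's p-values. With 2 arrays per genotype these intervals are not limits of detection. That of Ezh2, -2.72 to -1.03, left out 0, and limma's adjusted p for Ezh2 was still 0.999979.

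**Figure D2:**
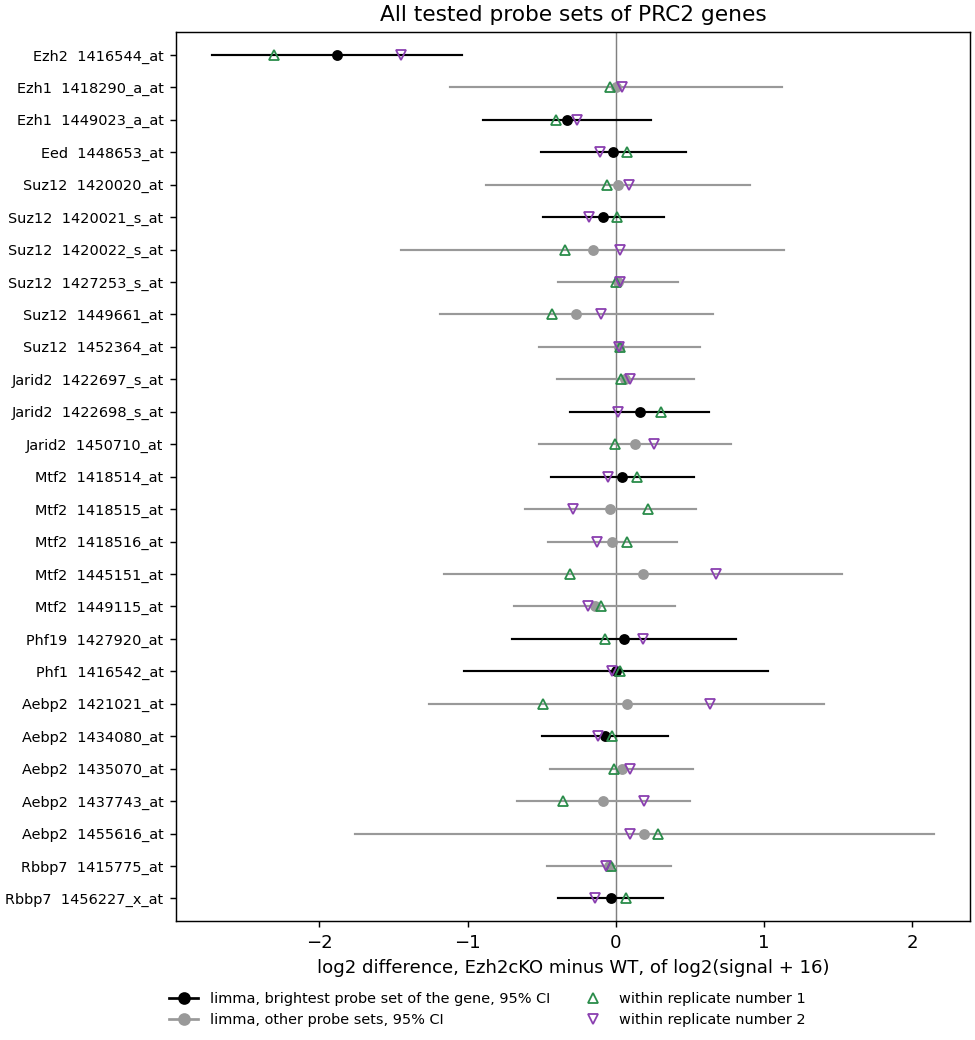
Log2 difference, Ezh2cKO minus WT, for the 27 tested probe sets of the 10 PRC2 genes; dots are limma estimates with 95% confidence intervals (black for the brightest probe set of a gene, grey for the others), and triangles are the differences within replicate number 1 (up) and number 2 (down). Ezh2 alone has an interval that leaves out 0, and the other 26 estimates lie between -0.33 and 0.19.

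The replicate number was a larger source of difference than the genotype for most probe sets on the arrays, and those of PRC2 were near this background. For 20 of the 27 tested PRC2 probe sets (74.1%) the shift between numbers 1 and 2, averaged over the genotypes, exceeded the genotype difference in size. For all tested probe sets this held for 79.1%. Ezh2 was among the 7 where it did not, with a number shift of 0.54, made up of 0.11 in WT and 0.97 in Ezh2cKO. Within number 1 and within number 2 the difference between genotypes had the same sign for 11 of the 27 (6 lower and 5 higher in Ezh2cKO), and over all tested probe sets 23.1% were lower and 25.5% higher in both numbers. What the sample numbers stand for is not stated in the labels.

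**Figure D3:**
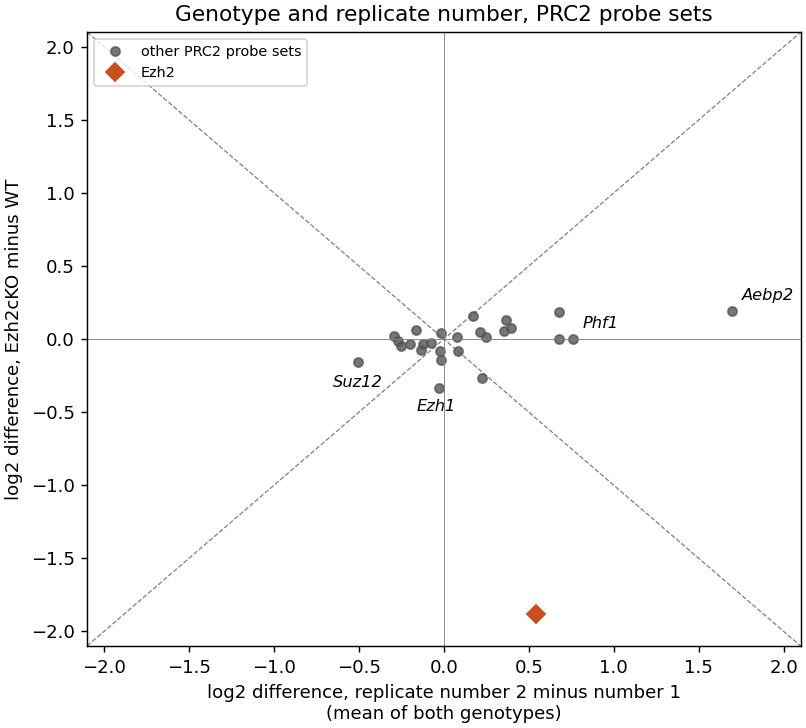
Genotype difference (y axis, log2, Ezh2cKO minus WT) against replicate number difference (x axis, log2, number 2 minus number 1, mean of both genotypes) for the 27 tested PRC2 probe sets; on the dashed lines both are equal in size. Ezh2 lies at -1.88 on the genotype axis and 0.54 on the number axis, while the named probe set of Aebp2 lies at 1.70 and that of Phf1 at 0.76 on the number axis with genotype differences of 0.19 and 0.001.

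Among further PRC2 partners, Epop, an elongin-binding protein that associates with the complex and limits it at active genes, had the largest difference. Its single tested probe set (1426980_s_at) had 456 and 517 in WT and 960.1 and 800.4 in Ezh2cKO. Both Ezh2cKO arrays lay above both WT arrays, 2.10-fold within number 1 and 1.55-fold within number 2. The log2 difference was 0.83 (SE 0.22, interval 0.28 to 1.38), with limma's unadjusted p of 0.0113 and adjusted p of 0.999979, and it ranked 88 among the 12789 genes by increase. The log2 difference was between 0.70 and 0.96 with any array left out. The lowest adjusted p under any alternative setting was 0.318. The probe set is of a design type that can detect more than 1 transcript.

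The other 3 tested partners overlapped between the genotypes, so 1 of 4 was separated upwards, where 8.55% of all genes were. Rbbp4, the twin of Rbbp7, had 10046 and 9243 in WT and 11857 and 8559 in Ezh2cKO, with its lowest and highest values both in Ezh2cKO. Lcorl had a log2 difference of -0.15 and Lcor, a corepressor gene whose locus also encodes a PRC2 partner, one of 0.06. Ezhip, an inhibitor of PRC2, lay below the filter, at 11.2 to 27.7.

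Of 10 genes whose products oppose Polycomb silencing, 9 were tested and 1 was separated, downwards (11.1% against 8.45% of all genes). By the brightest probe set of each gene the log2 differences were -0.16 to 0.14. The separated gene was Nsd1, a methyltransferase for lysine 36 of histone H3, with 1446 and 1247 in WT and 1242 and 1158 in Ezh2cKO. The genotypes were separated by a margin far smaller than the gap within WT, and the 4 tested Nsd1 probe sets ranged from log2 -0.17 to 0.18. Kdm6b, which removes the lysine 27 mark, had 1326 and 1177 in WT and 1276 and 1452 in Ezh2cKO by its brightest probe set. That probe set had a log2 difference of 0.12, and the 3 tested Kdm6b probe sets ranged from log2 0.01 to 0.55. Bap1, a deubiquitinase of histone H2A, had 1759 and 1481 in WT and 1977 and 1608 in Ezh2cKO. Both genes overlapped by their brightest probe sets. Kdm6a, the X-linked demethylase of the same mark, which escapes X inactivation, had 1206 and 1263 in WT and 1064 and 1263 in Ezh2cKO. Its lowest value was on the array with Xist at 86.9, and the part of this in its log2 difference of -0.09 was not tested.

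Polycomb repressive complex 1 (PRC1) places ubiquitin on histone H2A and in part binds the mark of PRC2. Of 19 listed genes 17 were tested, and 2 were separated upwards (11.8%) and 1 downwards (5.88%), with a median log2 difference of 0.07. Both shares are near those of all genes (8.55% upwards and 8.45% downwards). Bmi1, a core subunit, had 1899 and 1633 in WT and 3622 and 2963 in Ezh2cKO. Both Ezh2cKO arrays lay above both WT arrays. The log2 difference was 0.89 (SE 0.19, interval 0.42 to 1.36), with limma's unadjusted p of 0.00402 and adjusted p of 0.999979. It was between 0.75 and 1.03 with any array left out. The second of its 2 tested probe sets had a log2 difference of 1.02. Cbx8, a subunit that binds methylated histone H3, had 201 and 177 in WT and 216 and 293 in Ezh2cKO, and the ubiquitin ligase Rnf2 had 2312 and 2257 in WT and 3588 and 2217 in Ezh2cKO. Cbx8 was separated narrowly, and Rnf2 was high on Ezh2cKO replicate 1 alone. The gene separated downwards was Cbx6, with 5033 and 4905 in WT and 4637 and 4663 in Ezh2cKO. Bmi1 and Epop were the 2 genes of the 3 lists with the largest increases, and neither passed limma's adjusted threshold.

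**Figure D4:**
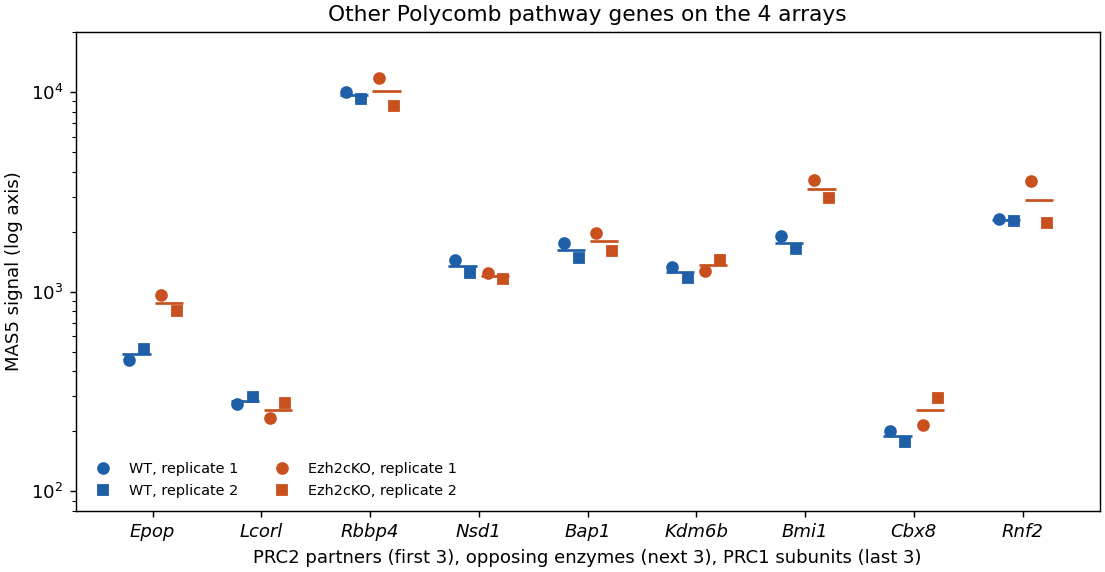
MAS5 signal (log axis) on the 4 arrays for the 3 genes with the largest moderated t of each list: PRC2 partners, enzymes that oppose silencing, and PRC1 subunits; points are single arrays, colours and symbols give genotype and replicate, and bars are means of 2 arrays. Epop (456 and 517 against 960.1 and 800.4) and Bmi1 (1899 and 1633 against 3622 and 2963) stand higher in Ezh2cKO on both arrays; heights of different genes are not comparable.

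Ezh2 and other core subunits are known to be higher in dividing cells, and cell cycle genes are given beside them. Of 20 listed genes 19 were tested, of which 1 was separated upwards and 1 downwards (5.26% each, against 8.55% and 8.45% of all genes), and the list had a median log2 difference of -0.001, 0.04 within number 1 and -0.10 within number 2. Mcm3, a subunit of the replicative helicase, had 5471 and 5505 in WT and 4901 and 5077 in Ezh2cKO. Another helicase subunit, Mcm6, had 5900.07 and 4582 in WT and 5612 and 3967 in Ezh2cKO, and the cyclin gene Ccne1 had 1095 and 1403 in WT and 1793 and 1343 in Ezh2cKO. Of these 3, Mcm3 was separated by its brightest probe set, and its 5 tested probe sets ranged from log2 -0.32 to 0.11. The gene separated upwards was Mcm2, a further helicase subunit, with 2725 and 2698 in WT and 2788 and 2878 in Ezh2cKO. The log2 differences of the list lay between -0.14 and 0.32, and the part of cell division in the Ezh2 difference was not tested.

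The 5 genes whose pattern over the 4 arrays lay nearest to that of Ezh2, by Euclidean distance between log2 values centred on each probe set's mean, were Car4, Gpd1, Fam167b, Lpar4 and Crhr1, at distances of 0.71 to 0.93, each by its nearest tested probe set. A probe set with no differences at all would lie at 2.00. As this choice makes likely, all 5 were lower on both Ezh2cKO arrays than on both WT arrays and lowest in Ezh2cKO replicate 1. They were dim: Car4 had 226 and 160 in WT and 45.7 and 98.6 in Ezh2cKO, and Lpar4 had 239 and 311 in WT and 63.9 and 214 in Ezh2cKO. The log2 differences of the nearest probe sets were -1.33 to -0.99. Other tested probe sets of the same genes differed less, with -0.73 for Car4, -0.74 for Gpd1, -0.33 for Crhr1 and -0.20 for Lpar4 at the smallest. With 4 arrays this likeness is a description of these samples. Ezh2cKO replicate 1 also had the lowest endothelial sum (3427) and Xist at 86.9, and the part of these features in the likeness was not tested.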

How the data were processed

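RNA of FACS-purified E16 basal cells from 2 WT and 2 Ezh2cKO samples was hybridised to Affymetrix arrays, as the labels state. The authors deposited 1 linear intensity per probe set and array, made with MAS5 per the submitters' processing notes (no version given). Trimming 2% from each end left a mean of 500.0 on all 4 arrays, and this scaling by the authors was kept. The median signal was still lower on the arrays numbered 1 than on those numbered 2. No detection calls were used, so it is unknown which dim probe sets exceeded background. The number of arrays limits the precision.

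Groups came from the sample titles. After 64 control probe sets were left out, probe sets were named through the platform annotation, with symbols updated through RefSeq (GRCm38.p6). Of 45037 probe sets, 34945 had 1 symbol, 932 several and 9160 none listed. Values were transformed as log2(signal + 16), the upper 60% by mean (a mean of at least 68.2) were fitted with limma 3.58.1 in R 4.3.3 (genotype only, intensity trend, two-sided), and p-values were adjusted by Benjamini-Hochberg over all 27022 probe sets. The code of the fit was run on simulated data with equal, independent noise and no number effect, so that run does not show its power here. "Separated" means that the ranges of the 2 WT and the 2 Ezh2cKO arrays did not overlap.

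All 10 genes are described, with their probe sets by values or by ranges. Of the lists of PRC2 partners, opposing enzymes, PRC1 and cell cycle genes, the 3 with the largest moderated t were named, with others (Lcor, Ezhip, Kdm6a, Cbx6, Mcm2) added after their values were seen, and the 5 nearest to Ezh2. The members and lists were chosen with earlier results of these data known. Alternatives were other pseudocounts (1 and 64), filters, normalizations, the replicate block, no trend, averaging probe sets by gene, and leaving out each array.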

Additional observations from a re-analysis of the deposited data

How the results depend on the processing

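Ezh2 kept its direction under all 13 alternatives, as did Ezh1, Suz12, Jarid2, Epop and Bmi1. The log2 difference of Ezh2 was -1.90 to -1.82 under the 9 that used all arrays and -2.36 to -1.40 with 1 array left out. With 1 array left out, 0 to 52 probe sets and 0 to 1 PRC2 genes were called, and 5 to 8 PRC2 genes were separated, because a lone array is easier to separate. The separated genes were 4 after quantile normalization (Ezh2, Ezh1, Suz12 and Aebp2, all lower) and 1 after scaling to a common median (Ezh2), again without the share over all genes. When the tested probe sets of each gene were averaged they were Ezh2 and Suz12, not Ezh1. The same-numbered samples shared deviations (correlation 0.76 across probe sets, 2 pairs), but the labels do not say what a number marks. With the replicate block, 6 probe sets were called, 1 of them a PRC2 gene, Ezh2 (log2 -1.88, adjusted p 0.0385). In this limma fit Bmi1 had an adjusted p of 0.0702 and Epop one of 0.318. The cause of these changes was not tested. Of the genes with differences near 0, Phf1 was -0.0093 after quantile normalization and -0.0207 after median scaling, and Aebp2 was 0.03 with the mean of its probe sets. With 1 array left out, Eed ranged from -0.20 to 0.17, Mtf2 from -0.11 to 0.20, Phf19 from -0.18 to 0.30, Phf1 from -0.39 to 0.40, Aebp2 from -0.16 to 0.0174 and Rbbp7 from -0.15 to 0.079.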
